A study of Caenorhabditis elegans with 4 samples.

Results

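*mir-75* and *mir-79* (cel-mir-75 and cel-mir-79) are a pair of *C. elegans* miRNA genes whose 3p strands belong to the same seed family. They were followed by name as 2 of the 250 hairpins counted in this series, through the hairpin row and the 5p and 3p mature rows of each, 6 of 697 rows in all. Small RNA of whole adult worms at day 0 was sequenced in 4 strains, as 1 library per strain, so no difference between strains has a replicate check and no p-value is given. WT was N2 Bristol grown at 25 °C. The *glp-1(e2144)* strain, CF1903, is mutated in the receptor that maintains the germline stem cells, serves as the germline-less longevity model and was also grown at 25 °C. ALG-1/OE, strain CT20, carries the integrated array zaIs5, in which GFP-tagged *alg-1* is driven from its own promoter, and was grown at 20 °C. Its control, ctrl or PE255, carries the integrated array feIs5 on chromosome X with a luciferase and GFP reporter under the *sur-5* promoter and was likewise grown at 20 °C. Both arrays hold the *rol-6(su1006)* marker, which WT and *glp-1(e2144)* lack. Each library came from a pool of worms, and each array stands for 1 integrated line.

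A miRNA is cut from a hairpin precursor as a duplex of a 5p and a 3p strand, of which usually one is kept by an Argonaute protein such as ALG-1 and guides it to mRNAs that pair with the seed, the bases near the 5′ end of the miRNA. miR-75-3p and miR-79-3p are known to share their seed, and this seed also occurs in the 3p strand of vertebrate miR-9. In *C. elegans*, *mir-79* acts in the epidermis on *sqv-5* and *sqv-7*, genes of proteoglycan synthesis, and thereby on the migration of neurons. ALG-1 is one of the Argonautes that bind miRNAs in somatic tissues.

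The hairpin of *mir-75* lies on chromosome X from 2372453 to 2372549 on the plus strand, and that of *mir-79* on chromosome I from 9332946 to 9333043, also on the plus strand. These positions are those of the deposited rows, and they equal the WBcel235 annotation at both hairpins. Neither hairpin lies within a protein-coding gene. *mir-75* stands downstream of 2 other miRNA genes on the same strand, *mir-74* at 3313 bases and *mir-73* at 3589 bases, and its nearest protein-coding gene is *F47G3.3*, 3435 bases further on. *mir-79* has no other miRNA gene within 10 kb. It lies 2017 bases downstream of *cbl-1* and 1756 bases past the 3′ end of *lin-41*, a gene on the opposite strand that is known as a target of let-7. A non-coding RNA gene on the minus strand, *C12C8.6*, overlaps the *mir-79* hairpin, and since it is not stated whether the counting used strand, reads of both could not be told apart. The annotated strands are 22 bases long, except miR-79-5p with 23 bases. They are separated by a loop of 16 bases in *mir-75* and of 19 bases in *mir-79*.

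Reads on mature miRNAs numbered from 175048 in ctrl to 536907 in *glp-1(e2144)*, and levels are given as RPM, reads per 1000000 mature miRNA reads, with 95% Clopper-Pearson intervals that cover counting error only. 1 read was worth between 1.86 RPM in *glp-1(e2144)* and 5.71 RPM in ctrl. Of the miRNAs taken as tissue markers, the intestinal miR-60-3p had 445 to 2002 reads and let-7-5p, which is on in late larvae and adults, had 807 to 2865 reads. The defining muscle miRNA, miR-1-3p, had 0 to 5 reads per library and the neuronal miR-124-3p had 0 reads in each of the 4. Other strands of these tissues had reads, with 7 to 27 per library for miR-1-5p, from the same hairpin as miR-1-3p, and 7 to 23 for the neuronal lsy-6-3p, both looked up after the values were seen. lin-4-5p, which is known to be on in larvae and adults, had 1 to 12 reads. The defining strands of muscle and neurons were thus at or near 0 in libraries labelled as whole worm, and how the counting treated single strands was not tested. The 8 listed 3p strands of miR-35 to miR-42, made in germline and embryos, took 10.9% of the reads in WT, 8.43% in ALG-1/OE, 6.26% in ctrl and 0.0698% in *glp-1(e2144)*, where 7 of the 8 had reads.

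The 3p strand was the main product of both genes in every library. miR-79-3p, the more abundant of both, had 133 reads in WT and 290 in *glp-1(e2144)* at 25 °C, and 189 in ctrl and 209 in ALG-1/OE at 20 °C. miR-75-3p had 37 reads in WT and 188 in *glp-1(e2144)*, and 54 in ctrl and 27 in ALG-1/OE. miR-79-3p thus led miR-75-3p in each library, in proportion by the least in *glp-1(e2144)* and by the most in ALG-1/OE. The 5p strands were rare throughout, with 2 to 13 reads for miR-75-5p and 4 to 13 reads for miR-79-5p. In each library the reads counted on a hairpin equalled the sum of its mature strands, so the counts held no further reads on the loops or flanks.

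As a level, miR-79-3p stood at 1080 RPM in ctrl (95% interval 931 to 1245), 878 RPM in ALG-1/OE (763 to 1005), 630 RPM in WT (527 to 746) and 540 RPM in *glp-1(e2144)* (480 to 606). The libraries grown at 20 °C were thus both above those grown at 25 °C, in which temperature, transgene and strain cannot be told apart. ALG-1/OE exceeded WT by 0.48 on the log2 scale (0.16 to 0.80), and the lowest neighbours, WT and *glp-1(e2144)*, differed by 0.22 (-0.085 to 0.52), which is within counting error. Its place among the detected miRNAs was nearly the same everywhere, between 54th of 215 in ctrl and 61st of 231 in WT.

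miR-75-3p was ordered differently. It stood at 350 RPM in *glp-1(e2144)* (302 to 404), 308 RPM in ctrl (232 to 402), 175 RPM in WT (123 to 242) and 113 RPM in ALG-1/OE (74.7 to 165). Between neighbours in this order, *glp-1(e2144)* and ctrl differed by 0.18 on the log2 scale (-0.26 to 0.65) and WT and ALG-1/OE by 0.63 (-0.13 to 1.40), so within each of these pairs the difference was not detectable at this depth. The step between ctrl and WT was 0.82 (0.19 to 1.46). Its place ran from 69th of 230 detected miRNAs in *glp-1(e2144)* to 110th of 232 in ALG-1/OE.

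**Figure D1:**
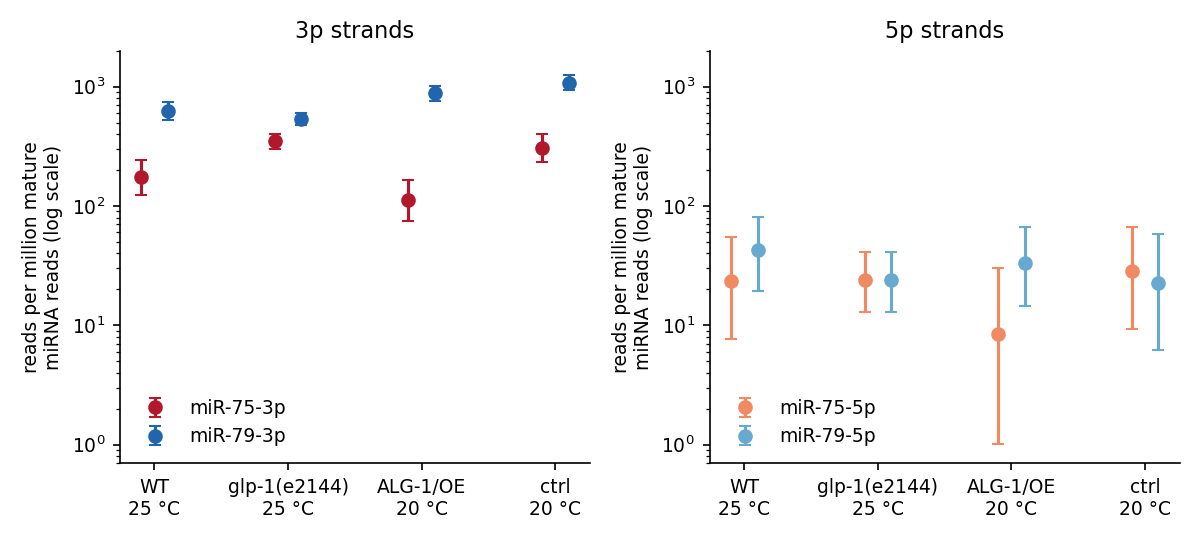
RPM, reads per 1000000 mature miRNA reads (log axis), of the 3p strands (left) and 5p strands (right) in the 4 libraries, 1 library per strain. Points are the values and bars their 95% Clopper-Pearson intervals for counting error; miR-79-3p lies above miR-75-3p in every library, and the 5p strands overlap in all 4.

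The 3p strand made up 93.7% of the mature reads of *mir-79* in WT (88.3% to 97.1%), 95.7% in *glp-1(e2144)* (92.8% to 97.7%), 97.9% in ctrl (94.8% to 99.4%) and 96.3% in ALG-1/OE (92.9% to 98.4%). For *mir-75* it made up 88.1% in WT (74.4% to 96.0%), 93.5% in *glp-1(e2144)* (89.2% to 96.5%), 91.5% in ctrl (81.3% to 97.2%) and 93.1% in ALG-1/OE (77.2% to 99.2%). The value of *mir-75* was the lower of both in each library, but the intervals overlapped in all 4. Most hairpins were more one-sided. Over the 81 to 92 hairpins with at least 20 reads on their strands, the main strand held a median of 98.0% to 99.3% of the reads, and the 3p strand was the main one in 55.6% to 60.9% of them.

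The strand preference of neither gene differed between libraries beyond counting error. The odds of 3p against 5p reads in *glp-1(e2144)* were 1.51 times those in WT for *mir-79* (exact 95% interval 0.55 to 3.92) and 1.95 times for *mir-75* (0.51 to 6.28). In ALG-1/OE they were 0.553 times those in ctrl for *mir-79* (0.12 to 2.11) and 1.25 times for *mir-75* (0.19 to 13.9). In ctrl they were 3.20 times those in WT for *mir-79* (0.87 to 14.5) and 1.46 times for *mir-75* (0.31 to 6.81). The intervals are wide, and each leaves room for a shift of several-fold in at least 1 direction. Among all hairpins with at least 20 reads in both libraries, the interval left out 1 for 29.5% in the first comparison and 14.8% in the second. For ctrl against WT it left out 1 for 17.9%.

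**Figure D2:**
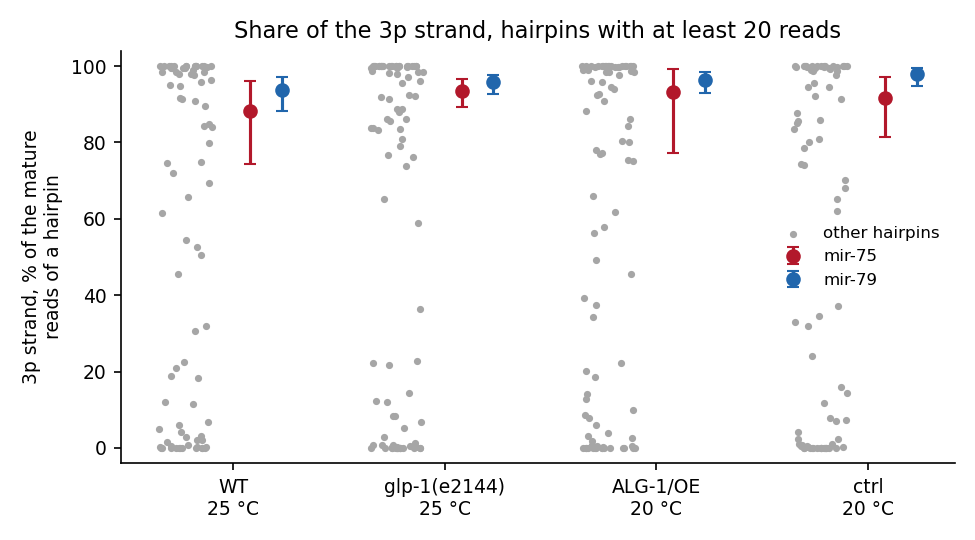
Percentage of the mature reads of a hairpin that lie on its 3p strand, by library. Grey points are other hairpins with at least 20 reads, coloured points are *mir-75* and *mir-79* with 95% Clopper-Pearson intervals; both sit between 88.1% and 97.9% in every library.

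For germline loss, *glp-1(e2144)* was compared with WT at 25 °C. miR-75-3p took a larger share of the miRNA reads in *glp-1(e2144)*, with 188 reads against 37 and a log2 ratio of 1.00 (95% interval 0.48 to 1.55), just short of 2-fold before rounding. miR-79-3p was 0.857 times as abundant, a log2 ratio of -0.22 (-0.52 to 0.085). Over the 199 mature miRNAs with reads in both libraries the median log2 ratio was -0.013, with 28.1% having an interval above 0 and 9.55% a log2 ratio above 1. An increase of the size of miR-75-3p was thus not rare: it ranked 20th from the top of all 199, and 10th of the 120 miRNAs that had 50 or more reads over both libraries together. The 5p strands gave log2 ratios of 0.032 for miR-75-5p (-1.55 to 1.87) and -0.82 for miR-79-5p (-2.15 to 0.59), from 5 to 13 reads each.

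The sign for miR-79-3p depended on the scaling. With the libraries scaled to all reads generated, as in the methods of the study, every log2 ratio of this comparison is 0.93 higher and the median over all miRNAs is 0.92. miR-79-3p then stood at 0.71 (0.41 to 1.02) and miR-75-3p at 1.93 (1.42 to 2.48), beside 46.2% of all miRNAs above 1 on that scale. The miR-35 to miR-42 strands had nearly no reads in *glp-1(e2144)*, and with that family left out of the total the values were 0.83 for miR-75-3p and -0.39 for miR-79-3p. In whole worms, fewer cells of a type and less miRNA per cell cannot be told apart. The part of the missing germline in these values was not tested.

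For ALG-1 overexpression, ALG-1/OE was compared with ctrl at 20 °C. miR-75-3p was 0.367 times as abundant in ALG-1/OE as in ctrl, with 27 reads against 54 and a log2 ratio of -1.44 (-2.17 to -0.75). This was the 6th lowest value of all 204 miRNAs with reads in both libraries, and the lowest of the 105 that had 50 or more reads over both together, whose median was 0.058. The next lowest of the 105 was miR-243-5p at -0.98 (-1.84 to -0.16), named after its value was seen. That value lay within the interval of miR-75-3p, so the lowest rank is not set apart by counting error. Over all 204 the median was 0.14 and 6.86% had a log2 ratio below -1. miR-79-3p was also lower, with a log2 ratio of -0.30 (-0.59 to -0.0076) that barely left out 0, where 14.2% of the miRNAs had an interval below 0. miR-75-5p had 2 reads against 5, a log2 ratio of -1.77 (-5.16 to 0.84), and miR-79-5p had 8 reads against 4, a log2 ratio of 0.56 (-1.34 to 2.74).

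Scaling to all reads generated raised the values of this comparison by 0.46, to -0.99 (-1.71 to -0.29) for miR-75-3p and to 0.16 (-0.13 to 0.45) for miR-79-3p, with a median of 0.60 over all miRNAs. miR-75-3p thus kept an interval below 0 on both scales, while miR-79-3p changed sign. On the scale of all reads 2.45% of all miRNAs had a log2 ratio below -1 and 26.5% above 1. miR-75-3p was no longer past -1 there.

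The control libraries also differed in both members. ctrl had more of miR-75-3p than WT, with a log2 ratio of 0.82 (0.19 to 1.46), and more of miR-79-3p, with 0.78 (0.45 to 1.11). Of 198 miRNAs, 20.7% had an interval above 0 in this pair. This pair shares the WT library with the first comparison, where miR-75-3p stood at 1.00. It shares the ctrl library with the ALG-1/OE comparison, where miR-75-3p stood at -1.44. A high value in ctrl thus enters both 0.82 and -1.44. Set against WT instead of ctrl, miR-75-3p in ALG-1/OE was lower by 0.63 (-0.13 to 1.40), within counting error. Strain, arrays and temperature cannot be told apart here.

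**Figure D3:**
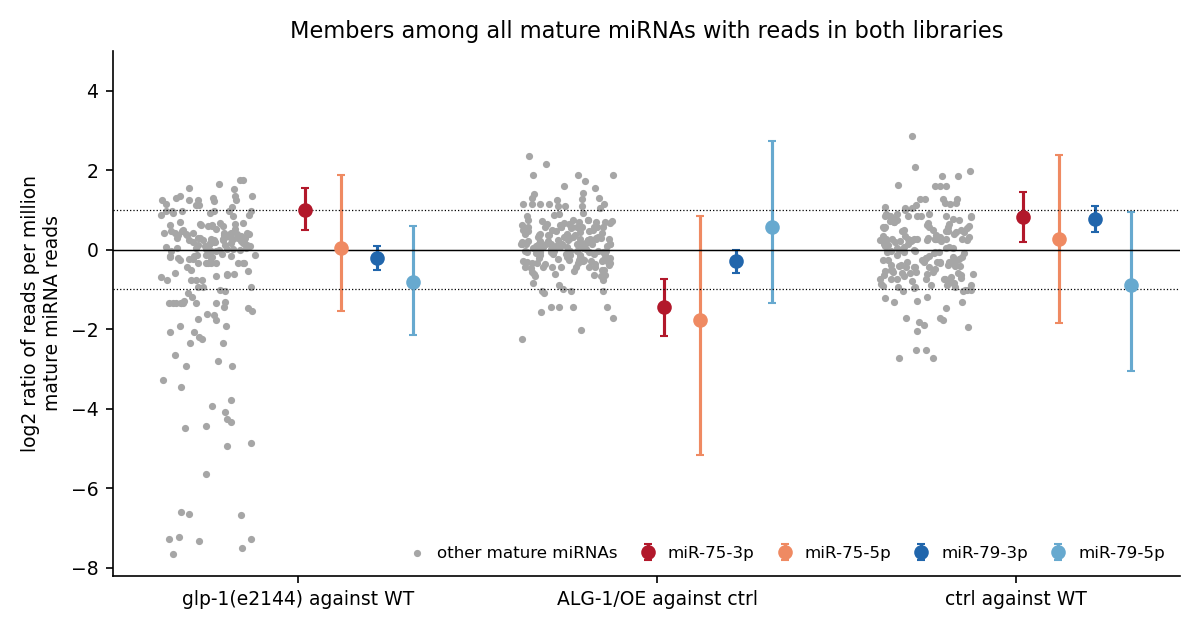
log2 ratio of RPM in each comparison, with 1 library on either side. Grey points are all other mature miRNAs with reads in both libraries, coloured points the 4 member strands with 95% intervals for counting error, and dotted lines mark 2-fold; miR-75-3p lies at 1.00, -1.44 and 0.82 from left to right and miR-79-3p at -0.22, -0.30 and 0.78.

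Set against each other, both 3p strands give a measure that no scaling can move. In WT there were 0.278 reads of miR-75-3p for each read of miR-79-3p (0.188 to 0.403), and in ctrl there were 0.286 (0.207 to 0.388). The ratio was 0.648 in *glp-1(e2144)* (0.537 to 0.782) and 0.129 in ALG-1/OE (0.0831 to 0.193). The control libraries were therefore nearly the same, with *glp-1(e2144)* above them and ALG-1/OE below, and the interval of *glp-1(e2144)* lay wholly above those of both. That of ALG-1/OE lay below that of ctrl and overlapped that of WT at its edge.

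As odds ratios with exact 95% intervals, miR-75-3p against miR-79-3p was 2.33 times higher in *glp-1(e2144)* than in WT (1.53 to 3.61) and 0.452 times as high in ALG-1/OE as in ctrl (0.26 to 0.77). Between ctrl and WT the odds ratio was 1.03 (0.62 to 1.70). Each of these compares a pair of libraries, not conditions. In *glp-1(e2144)*, 29.3% of the 198 miRNAs that could be set against miR-79-3p, miR-75-3p included, had an interval above 1 and 19.2% below. In ALG-1/OE, 2.46% of 203 had an interval below 1, namely miR-75-3p, miR-259-5p, miR-239a-5p, miR-80-5p and miR-58a-3p, the last 4 named after their values were seen. The odds ratios of the other 4 ran from 0.372 for miR-259-5p, with 7 reads against 17, to 0.779 for miR-58a-3p. On the other side, 25.1% of the 203 had an interval above 1 in ALG-1/OE. miR-79-3p itself had a log2 ratio of -0.30 in this comparison, beside a median of 0.14, so both shares also depend on it. By log2 ratio, 14.2% of the 204 miRNAs had an interval below 0. Between ctrl and WT, where miR-79-3p itself had a log2 ratio of 0.78, 44.2% of 197 had an interval below 1 and 0.508% above.

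Since both strands share a seed, their reads were also added, a sum chosen after the values were seen. Together they took 805 RPM in WT (689 to 936) and 890 RPM in *glp-1(e2144)* (812 to 974), and 1388 RPM in ctrl (1219 to 1574) and 991 RPM in ALG-1/OE (869 to 1126). The sum in *glp-1(e2144)* exceeded that in WT by 0.15 on the log2 scale (-0.11 to 0.41), within counting error, while its make-up moved from 21.8% miR-75-3p in WT to 39.3% in *glp-1(e2144)*. The sum in ALG-1/OE was below that in ctrl, at -0.49 (-0.75 to -0.22), and 11.4% of it was miR-75-3p, against 22.2% in ctrl. Scaled to all reads, the sum gave 1.08 (0.82 to 1.34) in the first comparison and -0.029 (-0.29 to 0.24) in the second.

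The strands of *mir-73* and *mir-74*, the genes upstream of *mir-75*, did not follow miR-75-3p. Both genes are counted among the relatives of vertebrate miR-31. The *mir-74* hairpin is overlapped by the non-coding RNA genes *T24D8.16*, on the minus strand, and *T24D8.14*, on its own strand. Reads in these overlaps could not be told apart either. miR-73-3p had 1010 reads in WT and 930 in *glp-1(e2144)*, and 699 in ctrl and 874 in ALG-1/OE. miR-74-5p had 103 reads in WT and 42 in *glp-1(e2144)*, and 47 in ctrl and 107 in ALG-1/OE. miR-74-3p had 23 reads in WT, 24 in *glp-1(e2144)*, 23 in ctrl and 27 in ALG-1/OE. As levels, both miR-73-3p and miR-74-5p were lowest in *glp-1(e2144)*, at 1732 RPM and 78.2 RPM. miR-73-5p had 0 to 4 reads and was not compared.

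In *glp-1(e2144)* all 3 had a lower level than in WT, whereas miR-75-3p was higher. The log2 ratios were -1.47 for miR-73-3p (-1.60 to -1.34), -2.64 for miR-74-5p (-3.19 to -2.11) and -1.29 for miR-74-3p (-2.17 to -0.39), where 21.6% of all miRNAs had an interval below 0. Scaled to all reads they stayed below 0, at -0.53, -1.71 and -0.35, the last with an interval that held 0 (-1.24 to 0.54). Independently of any scaling, the odds of miR-75-3p against miR-73-3p were 5.52 times higher in *glp-1(e2144)* than in WT (3.81 to 8.16), and those against miR-74-5p were 12.5 times higher (7.32 to 21.3).

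In ALG-1/OE against ctrl, miR-75-3p had the lowest log2 ratio of the 3p strands of the 3 genes. miR-74-5p was above ctrl, with a log2 ratio of 0.74 (0.23 to 1.27), where 18.6% of all miRNAs had an interval above 0, while miR-73-3p stood at -0.12 (-0.27 to 0.024) and miR-74-3p at -0.21 (-1.07 to 0.66). The call for miR-73-3p depended on the scaling, with an interval below 0 under median of ratios, at -0.20 (-0.34 to -0.050), and under TMM factors, at -0.29 (-0.44 to -0.15), and above 0 when scaled to all reads, at 0.34 (0.19 to 0.48). The odds of miR-75-3p in ALG-1/OE were 0.400 times those in ctrl against miR-73-3p (0.24 to 0.65) and 0.22 times against miR-74-5p (0.12 to 0.41). Against miR-74-3p they were 0.43 times those in ctrl (0.19 to 0.93). miR-79-3p against miR-73-3p gave 0.88 (0.71 to 1.11). The control libraries were not alike in this measure, with odds in ctrl 2.11 times those in WT against miR-73-3p (1.35 to 3.33). Against miR-74-5p they were 3.20 times those in WT (1.80 to 5.71). Against miR-74-3p they were 1.46 times (0.67 to 3.17), an interval that held 1. For miR-79-3p against miR-73-3p the value in ctrl against WT was 2.05 (1.60 to 2.64), close to that of miR-75-3p.

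**Figure D4:**
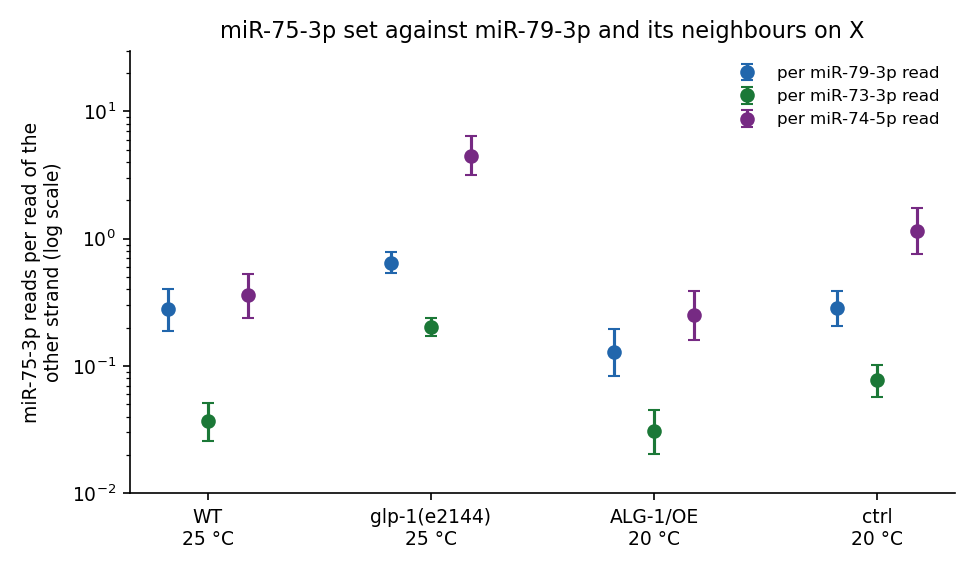
Reads of miR-75-3p per read of miR-79-3p, miR-73-3p or miR-74-5p in each library (log axis), with 95% Clopper-Pearson intervals. Against miR-79-3p the WT and ctrl libraries lie at 0.278 and 0.286, *glp-1(e2144)* at 0.648 and ALG-1/OE at 0.129. All 3 ratios are highest in *glp-1(e2144)* and lowest in ALG-1/OE, but the intervals of ALG-1/OE and WT overlap for each. Against miR-73-3p they are 0.0202 to 0.0453 in ALG-1/OE and 0.0256 to 0.0508 in WT. Against miR-74-5p they are 0.159 to 0.388 and 0.240 to 0.528.

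Likeness of pattern was measured as the root mean square difference of log2 RPM, centred on the mean of the 4 libraries, over 113 miRNAs with reads in each library and at least 100 in all. Closest to miR-79-3p were miR-52-5p at 0.12, miR-254-3p at 0.16 and miR-1830-3p at 0.19, against a median of 0.51 over the other 112. miR-52-5p, a member of the miR-51 to miR-56 family, had 5257 RPM in WT and 4179 in *glp-1(e2144)*, and 7329 in ctrl and 6185 in ALG-1/OE, the same order as miR-79-3p. Closest to miR-75-3p were miR-241-3p at 0.32, miR-239a-5p at 0.35 and miR-71-3p at 0.39, against a median of 0.73. miR-241-3p rested on few reads, with 15 in WT and 53 in *glp-1(e2144)*, and 19 in ctrl and 14 in ALG-1/OE. miR-239a-5p had 2415 RPM in WT and 2956 in *glp-1(e2144)*, and 2308 in ctrl and 1289 in ALG-1/OE. Its WT value was thus above that of ctrl, unlike miR-75-3p. The difference between both members was 0.82, the 75th smallest of 112 for miR-75-3p and the 90th for miR-79-3p, so other miRNAs were closer to each of them than they were to each other. With 4 libraries this is a description of those libraries only.

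**Figure D5:**
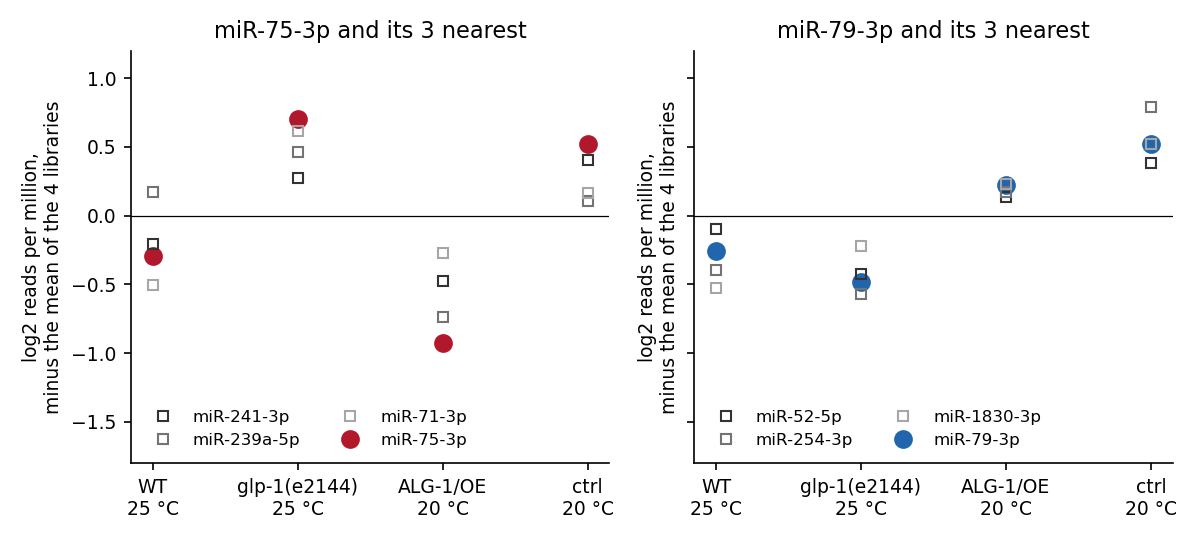
log2 RPM, minus the mean of the 4 libraries, for miR-75-3p (left) and miR-79-3p (right, filled circles) and the 3 miRNAs nearest to each in pattern (open squares). miR-75-3p spans 1.63 and miR-79-3p 1.00 on the log2 scale between its lowest and highest library.

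A list of 21 guide strands with counterparts in flies or vertebrates, both members included, served as the wider setting. In *glp-1(e2144)* against WT 18 of them could be compared. Of these, 10 had an interval above 0 and 2 below, beside 28.1% and 21.6% of all miRNAs. Intervals narrow as reads rise, so such counts also depend on depth. By log2 ratio, 2 of the 18 lay above 1 and 0 below -1, beside 9.55% and 27.1% of all miRNAs. The median log2 ratio of the list was 0.26, beside -0.013 over all. Of the 16 others, 2 lay below miR-79-3p and 14 below miR-75-3p. Among all 199 miRNAs, miR-79-3p ranked 117th from the top and miR-75-3p 20th. In ALG-1/OE against ctrl, 7 of 19 had an interval above 0 and 6 below, beside 18.6% and 14.2% of all miRNAs. The median was 0.051 beside 0.14 over all. By log2 ratio, 1 of the 19 lay above 1 and 2 below -1, beside 11.3% and 6.86% of all miRNAs. miR-75-3p shared the lowest value of this list with lin-4-5p, which had 1 read against 2 and an interval from -7.33 to 2.82. Between ctrl and WT, all 16 others lay below both members, which were the highest of the 18 on this list. Among all 198 miRNAs, however, miR-75-3p ranked 34th from the top and miR-79-3p 35th. On the list, miR-252-5p came next at 0.50 with an interval that held 0 (-0.50 to 1.53).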

How the data were processed

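Small RNA of whole *C. elegans* was read in 4 libraries, 1 per strain. Per the labels, 6 µg of total RNA was enriched for small RNA and prepared with a SOLiD kit, whereas the methods of the study name a HiSeq2500. The authors removed adapters and reads under 18 bp with the Fastx-ToolKit, aligned with Bowtie2 to ce10 and deposited raw read counts for 250 hairpin and 447 mature rows, without normalization. Versions, the miRNA annotation and the use of strand or of reads with several matches are not given in the sources used here. Of the hairpin rows, 243 of 250 had the coordinates of WBcel235 (Ensembl annotation), both members included.

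Counts of the 434 mature names, 1 row each (the row with most reads), were divided by their total. The study scaled by all reads generated. The ratio of these totals was recovered as the median difference between the fold changes listed in its supplement and the count ratios (140 and 171 miRNAs), so values on that scale rest on the study's own fold changes. It served as an alternative, as did the total less miR-35 to miR-42, median of ratios, TMM factors (edgeR 4.0.16, factors only), every mature row, 0.5 added reads, a minimum of 10 reads and a 1.5-fold cut-off. Log2 ratios had no pseudocount and carry the Clopper-Pearson interval of the share of a pair of counts; odds ratios carry exact conditional intervals. All intervals are at 95%, cover counting error only and were not adjusted for the number of comparisons. With 1 library per strain, no dispersion could be estimated and no p-value was computed. The series description calls CT20 the control; the sample labels, which were used, make it ALG-1/OE, as does the strain list of the study, with PE255 as its control.

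Named miRNAs are the members, those within 10 kb of a member, the 3 nearest in pattern, the marker and conserved lists, and any said to be named later. A search for other miRNAs of the same seed was not made, as no sequence table was used here. Members, lists and rules were chosen with earlier results of these data known. Computations ran in Python 3.11.15 with scipy 1.17.1, numpy 2.4.6 and pandas 2.3.3.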

Additional observations from a re-analysis of the deposited data

How the results depend on the processing

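With 2 to 13 reads on each 5p strand, only several-fold differences could be seen there, and no spread between worms could be measured for any strand. No paired analysis was possible because each strain has 1 library. miR-75-3p kept its direction and an interval without 0 in all 3 comparisons under every alternative run, from 0.83 to 1.93 in *glp-1(e2144)*, from -1.62 to -0.99 for ALG-1/OE and between 0.72 and 0.97 in ctrl against WT, for which scaling to all reads was not run, since the ratio of totals was not recovered for this pair. Its odds against miR-79-3p stayed on their side of 1 when whole hairpins were counted or 0.5 reads were added. Scaling to all reads turned the log2 ratio of miR-79-3p to 0.71 in *glp-1(e2144)* and to 0.16 for ALG-1/OE, that of miR-79-5p in *glp-1(e2144)* to 0.12, and in ALG-1/OE those of miR-73-3p to 0.34 and miR-74-3p to 0.24. Median of ratios and TMM factors gave miR-73-3p there an interval below 0. Leaving out the miR-35 to miR-42 family gave miR-79-3p -0.39 in *glp-1(e2144)*, an interval now below 0, and -0.26 for ALG-1/OE, an interval that held 0. It turned miR-75-5p in *glp-1(e2144)* to -0.14, which 0.5 added reads turned to -0.051, and the summed 3p strands there to -0.028. The cause of each of these moves is the shift that the scaling applies to all miRNAs alike, or, for 0.5 reads, the few reads.

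The background counts moved more. In *glp-1(e2144)* against WT, 19 miRNAs lay above 2-fold and 54 below. Scaling to all reads gave 92 and 31, a minimum of 10 reads in both libraries 9 and 21, and a 1.5-fold cut-off 42 above. In ALG-1/OE against ctrl, 23 lay above and 14 below, with 54 and 5 scaled to all reads, 5 and 1 with 10 reads, 42 and 24 at 1.5-fold, and 14 above with TMM factors. In ctrl against WT, 21 and 22 became 7 and 6 with 10 reads and 45 and 51 at 1.5-fold.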
